A study of Mus musculus with 20 samples.

Results

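The regions described here are stretches of the mouse liver genome that carried H3K27ac in every liver of the series, overlapped H3K4me1, and held no H3K9ac. H3K27ac and H3K9ac are acetylations of histone H3, and H3K4me1 is a methylation of the same histone. The rule took intervals of the authors' H3K27ac consensus set that were shorter than 8000 bases, overlapped a peak in all 8 H3K27ac libraries and the H3K4me1 consensus set by at least 1 base, and overlapped no interval of the H3K9ac set. It kept 3895 of 65776 consensus intervals, covering 7.80 Mb. Of the 18281 intervals called in all 8 libraries, 17643 were short enough and 15578 of these overlapped H3K4me1. The other 11683 of these 15578 also overlapped H3K9ac and served as the comparison.

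All livers came from C57BL/6 mice, males of 9 weeks on chow, killed after 24 h without food. Genotypes were 4: the wild type (WT), the liver knockout of Cpt2 (Cpt2 L-/-, written Cpt2 KO), the whole-body knockout of Ppara (Ppara -/-, written Ppara KO) and the double knockout (Cpt2 L-/- ; Ppara -/-, written DKO). H3K27ac and H3K4me1 were each measured by ChIP-seq in 2 samples per genotype. H3K9ac was measured in 1 WT and 1 Cpt2 KO sample, so its absence from Ppara-null livers was not measured, and the regions were chosen partly by a readout of WT and Cpt2 KO livers. The driver of the liver deletion is not given in the sources used here. The labels number the 2 samples of a genotype without saying that they are separate animals, and p-values measure the spread between these samples. Replicates 1 and 2 of a genotype are called its pair and given in that order, with no pairing across genotypes. Flash-frozen liver mixes cell types, so fewer cells carrying a mark and less mark per cell cannot be told apart.

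Enhancers are regulatory stretches, often far from the genes they act on, that are bound by transcription factors. H3K4me1 marks them whether active or poised, H3K27ac is laid down at the active ones and at active promoters, and H3K9ac is strongest at active promoters and occurs at a share of active enhancers. Ppara is a nuclear receptor that is activated by fatty acids and drives fat burning in the fasted liver. Cpt2 is the inner-membrane carnitine palmitoyltransferase without which mitochondria cannot burn long-chain fatty acids. The study asked how receptor and fat burning together shape liver chromatin.

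The 3895 regions lay mostly away from gene starts. In the 3761 outside chromosome 18, which was not used for gene starts, the median distance from the nearest start of a protein-coding gene was 35422 bases, against 3371 bases in the 11367 regions with H3K9ac. A coding start lay within 1000 bases of 1.54% of the regions without H3K9ac and of 38.6% of those with it, as the plot of distances to coding-gene starts shows. By their middle, 2150 (55.2%) lay inside a protein-coding gene body, against 73.9% with H3K9ac. Exons and introns were not resolved. The nearest H3K9ac interval was a median of 12591 bases away, and in 468 regions it was within 1000 bases. The regions were shorter (median 1793 bases, against 2214) and weaker: the median over regions of the mean H3K27ac fold enrichment was 9.61 without H3K9ac and 12.8 with it. The fold enrichment is the authors' ratio of ChIP signal at a peak over background, and the highest peak in a region gave its value in each library. These contrasts follow in part from the choice itself, since a mark of promoters decided which regions stayed, and they are given as description.

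**Figure D1:**
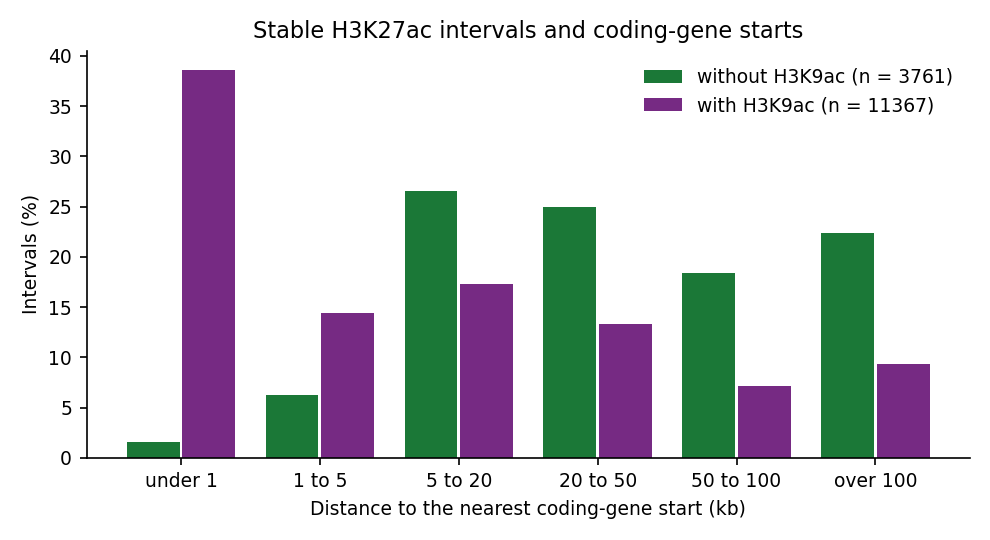
Share of regions (vertical axis, percent) by distance to the nearest start of a protein-coding gene (horizontal axis, kb), for stable H3K27ac regions without H3K9ac (green) and with it (purple), chromosome 18 left out. Of the regions without H3K9ac, 1.54% lay within 1 kb of a coding start, against 38.6% of those with it.

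Not all regions were distal, and 52 of them overlapped a coding start window, the 250 bases before to 50 bases after a gene start in the RefSeq table of GRCm38.p6, the assembly named mm10. Together they touched 56 windows of 54 genes, and 31 windows lay wholly inside a region. The genes included secreted and metabolic liver products: Mup21, a major urinary protein; the acyltransferases Acnat1 and Acnat2; the cytochromes Cyp2c39, Cyp2c67, Cyp2f2 and Cyp3a25; Orm2, an acute-phase protein; and Apcs, serum amyloid P. Several, among them the Mup, Cyp2c and Acnat genes, belong to families of near-identical copies, and reads shared between copies make their peaks uncertain. Interferon-induced genes were also present, with Ifi47, Ifi207, Isg15, Trim30a and the chemokine Cxcl10. In the 250 bases before the start, the 56 windows had a median of 4 CpG dinucleotides and 49.2% G and C. The 6358 coding windows in regions with H3K9ac had a median of 17 CpG and 61.4%, and all 21263 coding windows had 10 and 55.6%. By these medians, the 56 windows were poor in CpG beside those in regions with H3K9ac. Windows that reached past the edge of a region were counted, so a window could itself touch H3K9ac or stand in both sets. The Hbs1l window, for example, had 19 CpG, and its region lay 26 bases from H3K9ac.

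The sequences of 4 of these starts show that composition. They are the 250 bases before the start, 5′ to 3′ on the strand of the gene, from RefSeq, GRCm38.p6. Mup21 was picked for the highest mean H3K27ac fold among windows wholly inside a region, and the other 3 for a difference between genotypes; all were chosen after their values were seen. Capitals mark matches to motifs searched on both strands: AGGTCA (the core hexamer of nuclear receptors such as Ppara), GTTAAT (a core of HNF1, a hepatocyte factor), TGTTTAC or TGTTTGC (FOXA), TTGCGCAA or TTGCACAA (CEBP), TGACTCA (AP1) and CACGTG (E-box).
Mup21, minus strand, chr4:62150842-62151091: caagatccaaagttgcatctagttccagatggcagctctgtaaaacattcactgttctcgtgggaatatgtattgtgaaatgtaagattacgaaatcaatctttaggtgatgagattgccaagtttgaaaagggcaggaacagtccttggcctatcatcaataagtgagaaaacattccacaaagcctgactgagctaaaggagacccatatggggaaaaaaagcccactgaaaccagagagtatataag
Nat8f5, minus strand, chr6:85820973-85821222: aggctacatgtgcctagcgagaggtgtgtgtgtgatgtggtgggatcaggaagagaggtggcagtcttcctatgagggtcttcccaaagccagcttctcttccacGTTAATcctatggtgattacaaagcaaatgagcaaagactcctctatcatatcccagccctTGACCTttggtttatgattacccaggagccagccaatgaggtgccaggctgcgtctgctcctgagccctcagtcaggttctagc
Slc10a2, minus strand, chr8:5105288-5105537: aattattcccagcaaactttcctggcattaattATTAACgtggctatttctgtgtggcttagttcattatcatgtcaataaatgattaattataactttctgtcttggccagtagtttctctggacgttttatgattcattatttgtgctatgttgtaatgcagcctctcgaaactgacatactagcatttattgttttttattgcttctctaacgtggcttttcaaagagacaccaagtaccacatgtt
Trim30a, minus strand, chr7:104446126-104446375: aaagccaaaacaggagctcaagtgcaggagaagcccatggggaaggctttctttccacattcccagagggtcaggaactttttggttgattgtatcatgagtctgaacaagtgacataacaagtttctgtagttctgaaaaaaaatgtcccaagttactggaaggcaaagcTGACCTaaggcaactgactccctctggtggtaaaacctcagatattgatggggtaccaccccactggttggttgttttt
Mup21 held none of the motifs and 2 CpG. Nat8f5, of the N-acetyltransferase 8 family, held 1 match of each of the first 2 kinds. Slc10a2, the ileal-type bile acid transporter, held 1 HNF1 match, and Trim30a, an interferon-induced protein, 1 AGGTCA and no CpG. AGGTCA occurred in 15 (26.8%) of the 56 windows, in 11.5% of coding windows with H3K9ac and in 12.8% of all coding windows. GTTAAT occurred in 12.5%, 3.70% and 5.86%, and the CEBP palindromes in 7.14% (4 windows), 0.755% and 1.08%. Cyp3a25 entered with starts at both 146009618 and 146009617, so its AGGTCA and CEBP matches were counted for each. The windows of Pla2g2c and Ubxn10, both with AGGTCA, also overlapped. Only 31 of the 56 windows lay wholly inside a region, and a match in the others may lie outside it. FOXA words occurred in 7.14% of the 56 windows and in 6.43% of all. The direct repeat of AGGTCA with 1 base between, the Ppara element in its strict form, occurred in 0 of the 56 windows and in 9 of all coding windows. A match is a description of letters and not of binding.

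H3K27ac over the Nat8f5 start differed with Cpt2. Its fold was 13.1 and 12.9 in the WT pair, 16.6 and 13.0 in the Ppara KO pair, 9.00 and 8.38 in the Cpt2 KO pair, and 8.28 and 7.22 in the DKO pair. All 4 Cpt2-null libraries lay below all 4 Cpt2-intact ones. On the log2 scale, with each library centred on its median over the 18281 intervals called in all 8 libraries, the difference was −1.02 (SE 0.19; limma adjusted p = 0.00756). Over Trim30a the fold was 3.22 and 5.06 in the WT pair, 5.60 and 7.13 in the Ppara KO pair, 10.4 and 10.1 in the Cpt2 KO pair, and 12.1 and 14.1 in the DKO pair. The centred difference was 0.93 (SE 0.19; limma adjusted p = 0.0101), and every Cpt2-null library was higher than every Cpt2-intact one. The Trim30a region had an H3K4me1 peak in 1 of the 8 H3K4me1 libraries. The fold over Slc10a2 was 10.8 and 9.23 in the WT pair, 9.80 and 16.9 in the Ppara KO pair, 5.75 and 4.86 in the Cpt2 KO pair, and 9.74 and 8.43 in the DKO pair. Its Cpt2 difference was −0.98 (SE 0.21; limma adjusted p = 0.0130), and 0.0535 without Ppara KO 2. With the smallest peak width of a library as a covariate, a measure described with the Cpt2 comparison, the adjusted p of Nat8f5, Trim30a and Slc10a2 was 0.801, 0.633 and 0.594.

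H3K27ac in the regions was lowest in the WT libraries. The median fold was 7.60 and 7.35 in the WT pair, 11.1 and 9.56 in the Cpt2 KO pair, 8.71 and 9.59 in the Ppara KO pair, and 10.2 and 10.7 in the DKO pair. The regions with H3K9ac did not show WT lowest: their medians were 10.9 and 13.3 in the WT pair, 13.6 and 12.7 in the Cpt2 KO pair, 10.6 and 11.8 in the Ppara KO pair, and 12.8 and 14.95 in the DKO pair. On the centred log2 scale the medians of the regions were −0.38 and −0.63 in WT and between −0.39 and −0.20 in the 6 knockout libraries, so WT 1 and DKO 2 were alike and WT 2 stood apart. WT 2 held the lowest centred value of the 8 in 1377 regions (35.4%), ahead of DKO 2 with 695. In the regions with H3K9ac WT 2 had instead the highest centred median, 0.22, followed by WT 1 with 0.14. The libraries held 44454 to 48929 H3K27ac peaks each, and read totals are not in the files used here. The regions were chosen by H3K9ac measured in WT and Cpt2 KO only, and the part of that choice in the low WT values was not tested.

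**Figure D2:**
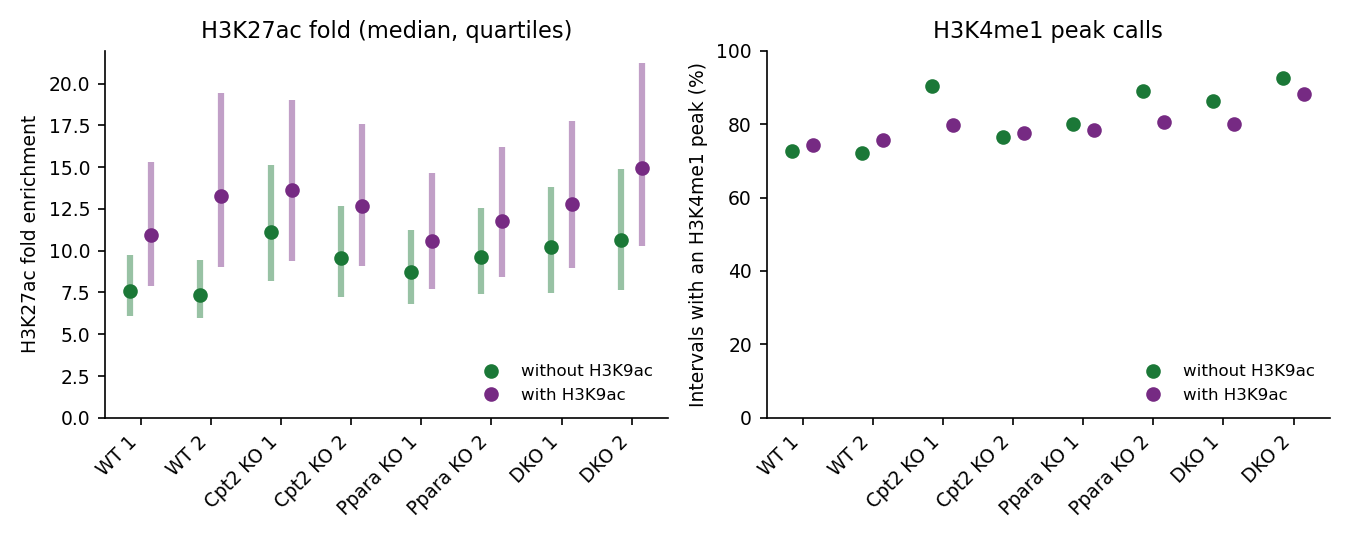
Left, H3K27ac fold enrichment by library (points, median; bars, quartiles) in regions without H3K9ac (green, n = 3895) and with it (purple, n = 11683); right, the share of the same regions with an H3K4me1 peak in each H3K4me1 library (percent). Green medians are 7.60 and 7.35 in the WT pair and 8.71 or more in the other libraries.

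Being called in every library did not mean an even level. The ratio of the highest to the lowest centred fold over the 8 libraries had a median of 2.20 (quartiles 1.86 and 2.69) in the regions, and 1.97 in those with H3K9ac. All 8 values lay within 2-fold in 1393 regions (35.8%), against 52.3% with H3K9ac. In 152 regions (3.90%) they spanned more than 4-fold. The steadiest region above the median fold lay 16381 bases from Ints7, a subunit of the Integrator complex, with folds of 10.99 and 12.7 in the WT pair, 15.8 and 14.9 in the Cpt2 KO pair, 12.8 and 13.3 in the Ppara KO pair, and 12.8 and 16.4 in the DKO pair. Its centred log2 values had an SD of 0.10 over the 8 libraries. Among the next steadiest were regions in or near Mllt10, Pde4b, Rassf3, Hspg2, Coro2b and Slc43a3, with SDs from 0.11 to 0.15. Hspg2 encodes the basement-membrane proteoglycan perlecan, and Pde4b a phosphodiesterase that breaks down cyclic AMP.

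The highest mean fold, 31.7, was found 31908 bases from Tax1bp1, an autophagy receptor, at chr6:52680343-52683226. Its folds were 21.2 and 21.2 in the WT pair, 25.1 and 25.4 in the Ppara KO pair, 47.0 and 36.4 in the Cpt2 KO pair, and 37.5 and 40.1 in the DKO pair, with every Cpt2-null library above every Cpt2-intact one. The next 7 lay in or near Zyg11b, Ndufb3, Marveld2, Traf3ip3, Amn1, Mup21 and Nox4, with mean folds from 29.5 down to 26.1. At the Mup21 start the fold was 18.02 and 12.2 in the WT pair, 38.5 and 25.3 in the Cpt2 KO pair, 30.5 and 30 in the Ppara KO pair, and 26.0 and 37.7 in the DKO pair. Both WT values were the lowest there, but neither the Ppara difference (0.48, SE 0.17; limma adjusted p = 0.110) nor the Cpt2 difference (0.30, SE 0.17; limma adjusted p = 0.271) passed. Regions with H3K9ac reached a mean fold of 60.8. At the length limit, the longest regions kept were near Sucnr1 (7994 bases, mean fold 23.0) and in Jak1 (7799 bases, 11.5) and Enpp2 (7628 bases, 13.1). Among the first intervals past the limit were those in Elovl6 (8208 bases, 11.9) and Klf12 (8428 bases, 15.2).

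The regions were assigned to 2416 nearest protein-coding genes, and 1603 of these genes had 1 region. Rad51b, a DNA repair gene of 550979 bases, had 13, of which 10 lay in the gene body, with mean folds from 7.08 to 25.2; 1 further stable region there carried H3K9ac. Pitpnc1, a phosphatidylinositol transfer protein, had 10, all in the gene body. Chst15, Lpp and Rgl1 had 9 each. Irs1, the insulin receptor substrate, had 7 regions without H3K9ac and 0 with it. Aldh1a1, a retinaldehyde dehydrogenase, had 8 and 2. No region was assigned to Cpt2 or to Ppara.

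While the rule required H3K27ac in all 8 libraries, it required H3K4me1 only in the consensus set. A peak of this mark was present in all 8 H3K4me1 libraries in 2230 regions (57.3%), nearly the 57.5% of regions with H3K9ac, and in 1 library only in 150. The share of regions with a peak was 72.8% and 72.2% in the WT pair, 90.5% and 76.4% in the Cpt2 KO pair, 80.2% and 89.1% in the Ppara KO pair, and 86.2% and 92.5% in the DKO pair. The 4 libraries with the highest shares were also those with the widest smallest H3K4me1 peak, 210 to 221 bases against 196 to 200 in the others. The part of that width, which is set at peak calling, in the shares was not tested.

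Regions past the test leaned towards higher H3K27ac in each knockout than in WT. The test was limma on centred log2 folds over all 18281 intervals, with Benjamini-Hochberg adjusted p under 0.05 called. Against WT, Cpt2 KO was higher in 487 regions and lower in 112, where 5.82% of all tested intervals were called higher and 7.69% lower (13.5% in all). The shares of the regions were 12.5% and 2.88%. Ppara KO was higher in 265 regions (6.80%) and lower in 22 (0.565%), where 2.83% and 3.59% of all intervals were called (6.42% in all). DKO was higher in 607 (15.6%) and lower in 218 (5.60%), where 8.62% and 11.5% were called (20.2% in all). The 3 comparisons share the WT libraries. The regions were also chosen for lacking H3K9ac, another acetylation, in 1 WT and 1 Cpt2 KO sample. The part of that choice in these differences was not tested. The median log2 difference from WT over the regions was 0.23 for Cpt2 KO, 0.29 for Ppara KO and 0.19 for DKO, and over all tested intervals −0.03, −0.03 and −0.04.

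These counts changed when single libraries were left out, mostly downwards but not always, and each such fit leaves 1 sample in a genotype. Without WT 2 the calls against WT fell to 124 for Cpt2 KO (95 higher), 24 for Ppara KO (24 higher) and 383 for DKO (222 higher), and the medians to 0.12, 0.17 and 0.09. Without WT 1 the medians were 0.35, 0.41 and 0.30. Without Cpt2 KO 1 or Cpt2 KO 2 the Cpt2 KO count was 28 or 211, without Ppara KO 1 or Ppara KO 2 the Ppara KO count was 16 or 32, and without DKO 1 or DKO 2 the DKO count was 381 or 327. Without centring, which moved the median difference of all intervals by 0.22 for Cpt2 KO and 0.30 for DKO, 859 regions were higher and 46 lower in Cpt2 KO, and 1123 and 101 for DKO. With the smallest peak width as a covariate 0, 5 and 0 regions were called. In all, 1241 regions (31.9%) were called in at least 1 of the 6 comparisons made, beside 28.4% of all intervals, and 2654 in none.

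**Figure D3:**
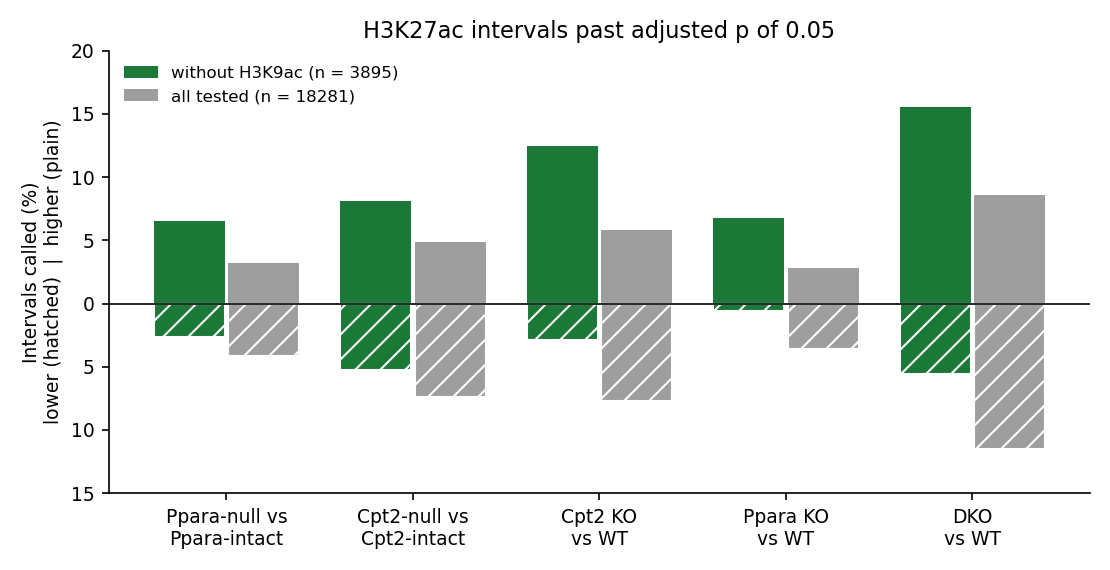
Percent of H3K27ac intervals with adjusted p under 0.05 (plain bars, higher; hatched bars below 0, lower) in the regions without H3K9ac (green, n = 3895) and in all intervals tested (grey, n = 18281), in 5 comparisons. In each, the green bar is the taller one above 0 and the shorter one below it.

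Ppara-null livers (Ppara KO and DKO) differed from Ppara-intact ones (WT and Cpt2 KO) in 358 regions, 255 higher and 103 lower. That is 9.19% of the regions, where 7.34% of all intervals were called; by direction, 6.55% and 2.64% of the regions stood beside 3.19% and 4.15% of all. The 4 and 4 libraries did not overlap on the centred scale in 164 of the higher (4.21% of the regions, where 2.08% of all intervals were called and did not overlap) and 66 of the lower regions (1.69%, beside 2.52% of all). The H3K9ac used to choose the regions was measured in Ppara-intact livers only, and the part of that choice in these shares was not tested. Calls numbered 127 without Cpt2 KO 2, 177 without Ppara KO 1, 191 without Ppara KO 2, 192 without DKO 2 and 189 with the width covariate. Most of the 16 regions with the largest differences and no overlap are described next, and all 16 kept their call and direction without any 1 library and with that covariate.

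The largest rise lay in Spon1, which encodes the matrix protein F-spondin, at chr7:113960150-113963520. Its fold was 6.17 and 5.80 in the WT pair, 3.43 and 4.13 in the Cpt2 KO pair, 20.7 and 22.9 in the Ppara KO pair, and 17.6 and 28.9 in the DKO pair. The lowest Ppara-null value was more than the highest Ppara-intact one, and the log2 difference was 2.19 (SE 0.19; limma adjusted p = 2.08e-04). H3K4me1 at the same place was 9.33 and 11.7 in the WT pair, 10.4 and 6.80 in the Cpt2 KO pair, 14.0 and 16.8 in the Ppara KO pair, and 17.8 and 13.9 in the DKO pair. The 4 Ppara-null libraries thus lay above the other 4 in this second mark too, but the H3K4me1 test called 0 of 2381 intervals over the regions for Ppara. Further rises lay near Aldh8a1, an aldehyde dehydrogenase (1.78, SE 0.22), Ercc3, a helicase of transcription and repair (1.73, SE 0.23), inside Itpr1, a calcium channel of the endoplasmic reticulum (1.68, SE 0.19), near the growth factor gene Btc (1.58, SE 0.20), near Vps26c, a part of the retriever sorting complex (1.46, SE 0.19), and near Ccdc172 (1.45, SE 0.21). Limma adjusted p-values of these 6 ran from 4.14e-04 to 0.00197. Near Btc, betacellulin, the fold was 3.57 and 6.33 in the WT pair, 15.1 and 15.2 in the Cpt2 KO pair, 23.2 and 15.7 in the Ppara KO pair, and 30.5 and 40.2 in the DKO pair. That region was also called for Cpt2 (1.01, SE 0.20; limma adjusted p = 0.00914), with WT lowest and DKO highest.

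The largest falls without Ppara lay in Smim4, a small protein of the mitochondrial inner membrane, and near Cyp4a32, of the Cyp4a family of fatty acid hydroxylases. In Smim4, at chr14:31110307-31117099, the fold was 14.7 and 13.8 in the WT pair, 37.5 and 26.8 in the Cpt2 KO pair, 5.72 and 4.48 in the Ppara KO pair, and 6.93 and 7.51 in the DKO pair. All 4 Ppara-null values were under 8, and the log2 difference was −1.84 (SE 0.18; limma adjusted p = 2.39e-04). Its H3K4me1 fold went the same way, with 10.4 and 7.20 in the WT pair, 13.9 and 10.99 in the Cpt2 KO pair, 4.44 and 5.0 in the Ppara KO pair, and 6.50 and 6.00 in the DKO pair. Near Cyp4a32, 3473 bases from the gene at chr4:115595938-115598970, H3K27ac was 18.5 and 19.4 in the WT pair, 48.3 and 37.7 in the Cpt2 KO pair, 10.1 and 6.70 in the Ppara KO pair, and 8.13 and 8.52 in the DKO pair. The difference was −1.81 (SE 0.18; limma adjusted p = 2.39e-04), and H3K4me1 was 10.6 to 19.2 in the Ppara-intact and 6.00 to 9.85 in the Ppara-null libraries. The Cyp4a genes are near-identical copies, which leaves the reads of this place uncertain. The other 6 lay in Mtfr1, a mitochondrial fission regulator (−1.66, SE 0.22), near Pawr, an apoptosis regulator (−1.59, SE 0.20), in Spi1, which encodes the myeloid factor PU.1 (−1.52, SE 0.25), in Patj, a tight-junction scaffold (−1.45, SE 0.19), in Alg9, a mannosyltransferase (−1.43, SE 0.17), and in Baz2b (−1.41, SE 0.23). In Spi1 and Baz2b the groups overlapped before centring.

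**Figure D4:**
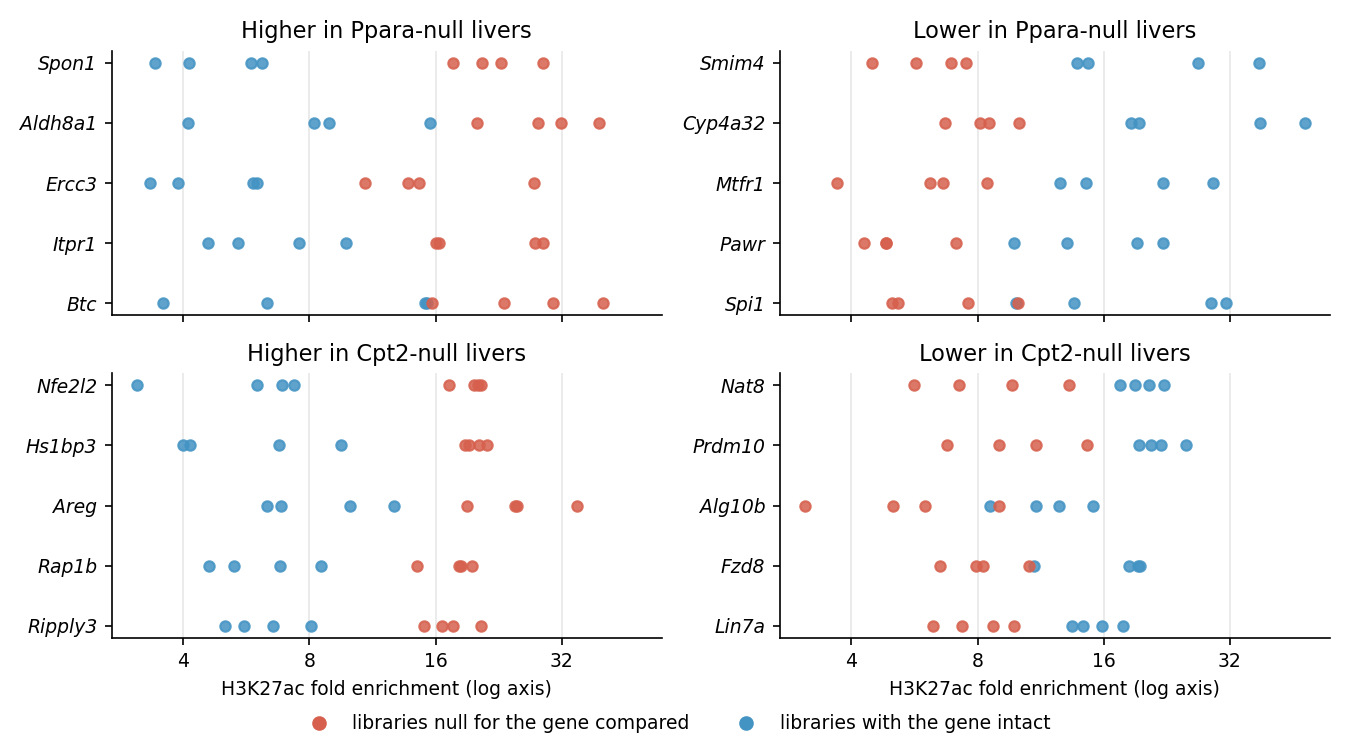
H3K27ac fold enrichment (horizontal log axis) in the 8 libraries (points) for the regions with the largest differences, named by nearest protein-coding gene: top, 5 higher and 5 lower in Ppara-null livers; bottom, 5 higher and 5 lower in Cpt2-null livers; red, null libraries; blue, intact libraries. In the Spon1 row the red points start at 17.6 and the blue points end at 6.17.

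Cpt2-null livers (Cpt2 KO and DKO) differed from Cpt2-intact ones (WT and Ppara KO) in 521 regions, 316 higher and 205 lower. That is 13.4% of the regions, where 12.3% of all intervals were called; by direction, 8.11% and 5.26% of the regions stood beside 4.90% and 7.38% of all. Without centring 1043 were higher and 65 lower. The smallest H3K27ac peak width, which the caller ties to fragment length, was 217 to 223 bases in the 4 Cpt2-null and 198 to 210 in the 4 Cpt2-intact libraries, and with it as a covariate 0 regions were called (344 at an unadjusted p under 0.05). Deletion of Cpt2 and this width cannot be told apart in these 8 libraries. Leaving out 1 library gave 324 (without WT 2, 156 higher and 168 lower), 138 (Cpt2 KO 1), 266 (Cpt2 KO 2), 239 (Ppara KO 1), 190 (Ppara KO 2), 300 (DKO 1) and 246 (DKO 2). The 4 and 4 centred values did not overlap in 183 higher (4.7%, beside 3.18% of all intervals) and 135 lower regions (3.47%, beside 4.19% of all), and the 16 largest of these kept their call and direction without any 1 library.

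The largest rise lay 63686 bases from Nfe2l2, which encodes the antioxidant factor NRF2, at chr2:75767695-75769004, 482 bases from the start of Gm34657. Its fold was 3.10 and 7.37 in the WT pair, 6.88 and 6.00 in the Ppara KO pair, 19.8 and 20.2 in the Cpt2 KO pair, and 17.2 and 20.5 in the DKO pair. Every Cpt2-null value was over 2-fold the highest Cpt2-intact one, and the log2 difference was 1.54 (SE 0.22; limma adjusted p = 0.00425). H3K4me1 there was 11.1 and 7.47 in the Cpt2 KO pair and 6.00 and 7.57 in the DKO pair, against 5.36 to 7.41 in the Cpt2-intact libraries, so the second mark overlapped between the groups. Another rise lay at chr5:91199107-91203548, 52895 bases from Areg, which encodes the growth factor amphiregulin. The Btc region described above is close by, at chr5:91272310-91276031, so these are neighbouring regions. Near Areg the fold was 6.84 and 6.33 in the WT pair, 12.8 and 10.0 in the Ppara KO pair, 24.7 and 19.0 in the Cpt2 KO pair, and 25.1 and 34.7 in the DKO pair (difference 1.29, SE 0.17; limma adjusted p = 0.00376). The other rises lay near Hs1bp3 (1.53, SE 0.24), the GTPase gene Rap1b (1.25, SE 0.18), Ripply3 (1.22, SE 0.19) and Cd47, the ligand that restrains phagocytosis (1.21, SE 0.17), and in Sox5, a transcription factor gene (1.19, SE 0.16), and Corin, a protease gene (1.10, SE 0.18). Hs1bp3, Rap1b and Cd47 had an H3K4me1 peak in 3, 2 and 1 of the 8 libraries.

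The largest fall without Cpt2 lay 9259 bases from Nat8, an acetyltransferase gene of the Nat8f5 family, at chr6:85845437-85846796. Its fold was 22.3 and 19.0 in the WT pair, 20.5 and 17.5 in the Ppara KO pair, 7.24 and 13.2 in the Cpt2 KO pair, and 5.63 and 9.66 in the DKO pair (difference −1.48, SE 0.23; limma adjusted p = 0.00493). H3K4me1 was 10.4 to 13.8 in the Cpt2-intact libraries and 5.17 to 10.8 in the Cpt2-null ones. The Nat8f5 region described above is close by, at chr6:85819633-85824532. Reads shared between genes of this family were not examined. In Prdm10, a zinc-finger gene, H3K27ac was 21.9 and 25.2 in the WT pair, 19.4 and 20.7 in the Ppara KO pair, 9.00 and 11 in the Cpt2 KO pair, and 6.78 and 14.6 in the DKO pair (difference −1.39, SE 0.20; limma adjusted p = 0.00425). The groups were apart in both, with a wide spread within the Cpt2-null genotypes. The other falls were near Alg10b (−1.37, SE 0.24), the Wnt receptor gene Fzd8 (−1.28, SE 0.21) and Klf12 (−1.19, SE 0.18), and in Lin7a (−1.22, SE 0.20), the cadherin gene Cdh2 (−1.18, SE 0.23) and Fars2, a mitochondrial tRNA synthetase gene (−1.16, SE 0.22). Near Alg10b the groups overlapped before centring. With the width covariate none of the 16 regions passed.

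No region was called for the interaction, the Cpt2 effect in Ppara-null minus that in Ppara-intact livers, where 0.00547% of all intervals were; 685 regions had an unadjusted p under 0.05. The smallest adjusted p was 0.0774, shared by regions in Sntb1, a syntrophin, 341432 bases from Marcks, a substrate of protein kinase C, and 12792 bases from Gm973. In Sntb1 the fold was 5.0 and 4.0 in the WT pair, 22.8 and 18.8 in the Cpt2 KO pair, 8.79 and 8.84 in the Ppara KO pair, and 6.6 and 10.77 in the DKO pair. Cpt2 KO stood above all other genotypes, with an interaction of −2.36 (SE 0.40). Near Marcks the fold was 5.66 and 5.98 in the WT pair, 40.4 and 31.2 in the Cpt2 KO pair, 8.57 and 6.84 in the Ppara KO pair, and 11.4 and 7.399 in the DKO pair, again highest in Cpt2 KO (−2.43, SE 0.42). Without centring both passed (limma adjusted p = 0.0483). The median interaction over the regions was −0.34, against 0.03 over all tested intervals. The part of the choice by H3K9ac in that median was not tested.

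For H3K4me1, 2381 of the 19526 intervals called in all 8 H3K4me1 libraries overlapped a region. For Ppara 0 of these were called, where 0.128% of all were, 0.0461% higher and 0.0819% lower (353 at an unadjusted p under 0.05). For Cpt2 0 were called, where 0% of all were (241 unadjusted). DKO against WT gave 3, 2 higher and 1 lower, where 0.133% of all were called, 0.0973% higher and 0.0358% lower (495 unadjusted). The 3 lay near Pcsk6, a proprotein convertase, in Spatc1, and near Car1, a carbonic anhydrase. The smallest H3K4me1 peak width was 199 bases in both WT libraries, and 210 and 221 in the DKO pair. With this width as a covariate 0 were called. Genotype and width differed together between WT and DKO, and their parts cannot be told apart. Near Pcsk6 the H3K4me1 fold was 3.71 and 4.11 in the WT pair and 11.8 and 15 in the DKO pair (1.77, SE 0.31), in Spatc1 4.81 and 5.0 against 13.0 and 16 (1.56, SE 0.29), and near Car1 8.33 and 7.83 against 3.14 and 2.93 (−1.41, SE 0.27), each with a limma adjusted p of 0.0473. Without any 1 of the WT or DKO libraries 0 were called, without Cpt2 KO 1 or Cpt2 KO 2 the number was 154 or 159 (6.47% or 6.68% of these, beside 5.08% or 5.12% of all intervals), and without Ppara KO 1 or Ppara KO 2 it was 11 or 6. Left-out libraries moved the other comparisons too: Ppara had 159 calls without Cpt2 KO 1 (6.68%, beside 5.20% of all intervals), and Cpt2 had 43 without Cpt2 KO 2 (1.81%, beside 1.07% of all). The smallest p for Ppara belonged to regions near Smtn (0.0676), in Smim4 (0.0768) and near Gatb (0.0924), and for Cpt2 to those near Ell2 (0.313), in 4921539E11Rik and in Spatc1 (0.424 each), as limma adjusted p.

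Of 36 Ppara target genes of fatty acid oxidation and ketogenesis, 7 were nearest to 11 regions without H3K9ac, and 22 to 40 stable regions with it. Over the 11, H3K27ac was lower without Ppara in 2 (18.2%) and higher in 0. Of all tested intervals 4.15% were called lower and 3.19% higher, and of all 3895 regions 2.64% and 6.55%. The median log2 difference over the 11 was −0.38, beside 0.13 over all 3895 regions. Both lower regions lay near Acsl1, the acyl-CoA synthetase that activates fatty acids, at 67089 and 61828 bases. They are close neighbours, the one nearer the gene at chr8:46408140-46410279, so the 18.2% comes from the same stretch of the genome. At the first, chr8:46402684-46405213, the fold was 15.7 and 17.4 in the WT pair, 31.6 and 24.1 in the Cpt2 KO pair, 6.57 and 11.3 in the Ppara KO pair, and 10.2 and 7.08 in the DKO pair, and all Ppara-null values were below all Ppara-intact ones (−1.35, SE 0.20; limma adjusted p = 0.00220). The second (−1.06, SE 0.22; limma adjusted p = 0.0120) had a limma adjusted p = 0.0520 without WT 2, and limma adjusted p = 0.0540 without Ppara KO 1. A region 2427 bases from Bdh1, a ketone body enzyme, had folds of 4.64 and 10.8 in the WT pair, 19.4 and 18.3 in the Cpt2 KO pair, 5.23 and 19.6 in the Ppara KO pair, and 14.98 and 18.1 in the DKO pair, with a wide split between the WT and the Ppara KO libraries. One in Cpt1a, the gateway of fatty acids into mitochondria, ran from 4.57 in WT 1 to 12.6 in DKO 2. Neither of these 2 regions was called for Ppara or for Cpt2. A Cd36 region was called higher without Cpt2 (0.70; limma adjusted p = 0.0440, and 0.138 without Ppara KO 2). The region 3100 bases from Fgf21, the fasting hormone, had folds between 5.70 and 11.4.

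Of 23 hepatocyte transcription factor genes, 12 were nearest to 29 regions (88 with H3K9ac), 2 of them higher and 0 lower without Ppara, and 1 higher and 2 lower without Cpt2. These calls are 6.90% and 10.3% of the 29, near the 7.34% and 12.3% of all intervals called for Ppara and for Cpt2. For the others the limma adjusted p rose, without 1 library, to 0.130 for Nfia (without Ppara KO 1), 0.124 for Nfib (without Cpt2 KO 1), 0.114 for a second Gata6 region (without Cpt2 KO 1) and 0.073 for Foxa2 (without Cpt2 KO 1). The Ppara rise near Gata6 held without any 1 library (1.18, SE 0.22; limma adjusted p = 0.00661), with folds of 4.51 to 7.75 in Ppara-intact and 8.89 to 20.3 in Ppara-null libraries. The highest mean fold of the list, 16.3, lay near Xbp1, a factor of the secretory pathway, with 10.97 in WT 1 and 26.2 in DKO 2. Of 18 clock genes 2 had 6 regions: Rora, the nuclear receptor, had 5, and Bhlhe40, a repressor, had 1. Calls made up 16.7% of the 6 for Ppara and 16.7% for Cpt2, beside 7.34% and 12.3% of all intervals. A Rora region was called higher without Cpt2 (0.59; limma adjusted p = 0.0371, and 0.133 without Cpt2 KO 1). Near Bhlhe40 the fold was 4.43 and 5.22 in the WT pair, 11.6 and 12.2 in the Cpt2 KO pair, 15.8 and 16.01 in the Ppara KO pair, and 12.6 and 20.5 in the DKO pair (Ppara difference 1.05, SE 0.18; limma adjusted p = 0.00433), with WT lowest. Of 21 stress response genes 6 had 12 regions, 1 higher without Ppara (8.33% of the 12) and 2 higher without Cpt2 (16.7%). The Cpt2 rises lay near Nfe2l2, given above, and 55698 bases from Fos, an immediate-early factor, where the fold was 6.45 and 9.03 in the WT pair, 10.8 and 14.2 in the Ppara KO pair, 21.2 and 17.2 in the Cpt2 KO pair, and 25.4 and 23.8 in the DKO pair (0.89, SE 0.16; limma adjusted p = 0.00756). A second region near Nfe2l2, 15309 bases away, rose without Ppara instead (1.04, SE 0.20; limma adjusted p = 0.00768).

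Fasting and glucocorticoid genes (7 of 20 genes, 14 regions) had 1 region higher without Ppara and 1 lower without Cpt2, as had lipogenesis and cholesterol genes (7 of 20, 9 regions). In each comparison the calls were 7.14% of the 14 and 11.1% of the 9. Of all intervals, 7.34% were called for Ppara and 12.3% for Cpt2. Secreted plasma protein genes (6 of 30, 11 regions) had 1 higher without Ppara, xenobiotic, bile acid and conjugation genes (3 of 20, 3 regions) had 0 calls, and housekeeping genes (3 of 15, 7 regions) had 1 higher without Ppara and 1 each way without Cpt2. Called for Ppara were 9.09% of the 11 and 14.3% of the 7, and for Cpt2 0% and 28.6%. The genes, with the highest limma adjusted p reached without 1 library, were Ppargc1a (0.105 without Ppara KO 1) and Klf9 (0.113 without DKO 1), Elovl6 (0.137 without Ppara KO 2) and Acaca (0.0593 without Ppara KO 1), Alb (0.179 without Cpt2 KO 2), and Ywhaz for Ppara (0.135 without Cpt2 KO 2) and Actb (0.137 without DKO 1). Near Pck1, the gluconeogenic enzyme, the fold was 9.22 and 13.6 in the WT pair, 26.0 and 23.0 in the Cpt2 KO pair, and 11.8 to 15.1 in the Ppara-null libraries, and neither comparison was called.

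Marker genes of liver cell types were found beside the regions to different degrees. Of 10 sinusoidal endothelium markers, 7 had 21 regions without H3K9ac and 5 had 9 with it, so 70.0% of their 30 stable regions lacked H3K9ac. For 10 hepatocyte markers the numbers were 3 genes with 5 regions and 9 genes with 20, or 20%, and 25.003% of all 15578 stable regions with H3K4me1 lacked H3K9ac. Stab2, a scavenger receptor, and Erg, an endothelial transcription factor, had 6 regions each, and Kdr, the VEGF receptor, had 5. The strongest, in Stab2, had folds of 13.0 and 9.43 in the WT pair, 18.6 and 13.0 in the Cpt2 KO pair, 12.1 and 12.6 in the Ppara KO pair, and 15.6 and 12.5 in the DKO pair, with overlapping groups. Of the 21, 0 were called for Ppara and 1, near Stab2, was called higher for Cpt2 (limma adjusted p = 0.0195, and 0.0830 without Cpt2 KO 1). Of 10 Kupffer cell and macrophage markers 2 had a region, Csf1r and Spi1. The Spi1 region was among the falls without Ppara, and the Csf1r region was not called, with a Ppara difference of 0.21 (SE 0.19; limma adjusted p = 0.546) and folds of 7.26 and 5.74 in the WT pair and 11.2 and 13.9 in the DKO pair. The stellate cell (10) and lymphocyte (8) markers had 0 stable regions of either kind. Regions were tied to genes by distance alone. The part of cell mixture in the results was not tested.

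The hairpins of 3 of 1005 microRNAs lay within a region, against 95 in regions with H3K9ac. Their mature sequences, from RefSeq, are shown with the seed (bases 2 to 8) in capitals because these are the transcribed products inside the regions; the 3 seeds differ.
miR-26a-5p, hairpin Mir26a-1, chr9:119031796-119031885: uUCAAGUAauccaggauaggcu
miR-190a-5p, hairpin Mir190a, chr9:67236660-67236726: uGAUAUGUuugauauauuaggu
miR-6387, hairpin Mir6387, chr12:15800994-15801101: uGGAAUGGcuucccuuguguau
Mir26a-1 lies in Ctdspl, whose gene body held all of its 8 regions, and the fold over it ran from 5.80 in Ppara KO 2 to 12.6 in DKO 1. Mir190a lies in Tln2, the talin gene, with folds of 14.4 and 15.1 in the WT pair, 20.4 and 21.5 in the Cpt2 KO pair, 14.7 and 12.6 in the Ppara KO pair, and 15.03 and 10.3 in the DKO pair. Cpt2 KO was highest there, and the Ppara difference of −0.46 (SE 0.19; limma adjusted p = 0.150) did not pass. Neither did any difference over Mir26a-1 or Mir6387, the latter in Trib2, with Ppara adjusted p-values of 0.675 and 0.188.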

How the data were processed

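The authors deposited a narrow peak list for each H3K27ac and H3K4me1 library, made with BWA and MACS2 2.1.0 on mm10 per the submitters' processing notes, and consensus intervals of each mark with positions only. Per the file headers and values, each peak has positions in bases, a fold enrichment (a ratio over background, made by the authors) and the authors' −log10 p and −log10 q, of which the smallest −log10 p was 7.02. The peak names of H3K27ac Ppara KO 2 carry another build word, and its positions were used as mm10. Here, the highest peak overlapping an interval gave its fold. Log2 folds were centred per library on the median over intervals called in all 8 libraries and fitted with limma 3.58.1 in R 4.3.3 (4 genotype means, eBayes with trend, Benjamini-Hochberg over all intervals). On simulated data the fit was tested before use. Genes, start windows and microRNAs came from RefSeq tables of GRCm38.p6, and the gene of a region is the nearest of 21887 protein-coding gene bodies to its middle. Named are the 8 highest and lowest differences without overlap, the 3 smallest p of other comparisons, the 8 highest and steadiest regions, listed genes, and those said to be chosen after their values were seen. Regions and gene lists were chosen with earlier results of these data known. Depth in reads is not given in the files used here, so no counting interval is given. Sequences of the regions themselves were not used here. A few regions and 1 marker list that these rules select are not reported here.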

Additional observations from a re-analysis of the deposited data

How the results depend on the processing

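The number of regions, 3895, was 3911 with an overlap of at least 50%, 3115 with peaks of −log10 q of at least 10, 3427 with no H3K9ac within 1000 bases, 3664 under 4000 bases and 3944 to 4529 without 1 library, the highest without WT 2; an H3K4me1 peak in all 8 libraries left 2230. With the smallest peak width as a covariate, calls numbered 189 for Ppara (main 358), 0 for Cpt2 (521), 0 for Cpt2 KO (599), 5 for Ppara KO (287) and 0 for DKO (825) against WT, and 0 for H3K4me1 in DKO (3). Without centring there were 1108 for Cpt2, 905 for Cpt2 KO against WT, 2 for the interaction (0) and 0 for H3K4me1 in DKO; the last was also 0 with peaks of −log10 q of at least 10 and with eBayes without trend. Without 1 library the ranges were 127 to 379 (Ppara), 138 to 563 (Cpt2), 0 to 2 (interaction), 28 to 604 (Cpt2 KO against WT), 16 to 382 (Ppara KO against WT), 327 to 763 (DKO against WT), and for H3K4me1 0 to 159 (Ppara), 0 to 43 (Cpt2) and 0 to 159 (DKO against WT). Quantile normalization, log2(fold + 1), eBayes without trend and cyclic loess, the last added after the data were seen, kept each H3K27ac count within 1.5 times. Of the 16 regions with the largest differences, 9 for Ppara and 10 for Cpt2 were still in the fit with peaks of −log10 q of at least 10. These kept their call, and the others were not tested there. The Cpt2 difference over the Cyp2f2 start turned to 0.0201 with the width covariate. The cause was not tested.

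Replicate numbers gave no clear pairing of samples across genotypes. Within each genotype the centred log2 fold of replicate 2 was taken from that of replicate 1 in every interval. Between genotypes these differences, not the libraries themselves, correlated by −0.06 to 0.17 in H3K27ac and by −0.49 to 0.10 in H3K4me1. With a replicate block the counts were 389 for Ppara, 597 for Cpt2, 0 for the interaction, and 686, 335 and 892 for Cpt2 KO, Ppara KO and DKO against WT, and 0 in each H3K4me1 comparison.

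The limits are these. There were 2 samples per genotype, H3K9ac was measured in 1 WT and 1 Cpt2 KO sample, and being called in all 8 libraries removes regions lost in a genotype. A fold enrichment depends on the width and background used at peak calling, and the Cpt2 deletion and peak width moved together. In H3K4me1 the width also differed between WT and DKO. Nearest genes are names for places, with no evidence of what a region regulates.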
